A study of Mus musculus with 6 samples.

Results

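The cardiac myosin heavy chain genes Myh6, Myh7 and Myh7b and the long noncoding RNA gene Mhrt were followed in mouse hearts with and without a conditional deletion of Ythdc1. The 4 genes were chosen by name, and all 4 were found among the 54532 genes of the deposited FPKM table (fragments per kilobase of gene length, scaled by a factor for each library). All 4 passed the filter of a mean of at least 1 FPKM, as 12144 genes did. Messenger RNA was sequenced from the hearts of 3 flox control mice (genotype Ythdc1flox/flox) and 3 CKO mice (genotype Ythdc1-CKO, named HKO in the series' design text). Both groups had eaten normal chow for 15 days, and each group is described as independent biological replicates. The age and sex of the mice, the deleted part of Ythdc1, the driver of the deletion and whether the controls carry Cre are not given in the sources used here. Ythdc1 encodes a nuclear protein that binds N6-methyladenosine in RNA.

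Myosin heavy chain is the motor protein of the thick filament. In the adult mouse ventricle the fast alpha chain, encoded by Myh6, is the main form, and the slow beta chain, encoded by Myh7, is the main form before birth and returns under haemodynamic load or low thyroid hormone. The genes lie in a row on chromosome 14 and are read in the same direction. Mhrt starts between them and is read the other way, into Myh7; its RNA is known to bind the chromatin remodeller Brg1. Myh7b is an older relative on chromosome 2. Each heavy chain gene carries a microRNA gene in an intron: Mir208a in Myh6, Mir208b in Myh7 and Mir499 in Myh7b.

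The mature microRNAs of the 3 introns are shown because they tie the heavy chain genes together by sequence. Capitals mark the seed, bases 2 to 8, and the sequences are from RefSeq (build GRCm38.p6), 5′ to 3′.
mmu-miR-208a-3p (Myh6 intron 29, chr14:54949072-54949093, minus strand): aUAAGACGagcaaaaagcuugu
mmu-miR-208b-3p (Myh7 intron 31, chr14:54975710-54975731, minus strand): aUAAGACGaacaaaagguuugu
mmu-miR-499-5p (Myh7b intron 19, chr2:155622893-155622913, plus strand): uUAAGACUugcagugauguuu
The microRNAs of Myh6 and Myh7 shared the whole seed and differed at 3 of 22 positions, G10A, A16G and C18U, counted from the 5′ end with the miR-208a-3p base first. The microRNA of Myh7b differed from miR-208a-3p at 9 of 21 positions, of which 1 was in the seed (G8U). Mature microRNAs were not measured in these libraries, which hold polyadenylated RNA.

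The upstream windows of the 3 neighbours on chromosome 14 had a further short sequence in common. CATTCC, the core of the M-CAT element bound by TEAD factors, was searched on both strands from 250 bases before to 50 after each RefSeq start site. It was found in reverse complement (capitals) upstream of Myh6, Mhrt and Myh7, and each match is shown with 12 bases on either side, along the gene's own strand.
Myh6 (chr14:54966796-54966825, minus strand): ctttggggaggaGGAATGtgcccaaggact
Mhrt (chr14:54968555-54968584, plus strand): ctcagggaacctGGAATGccactcaggcca
Myh7 (chr14:54994810-54994839, minus strand): ctagtgagccgtGGAATGttagagatattt
The matches lay 206, 220 and 201 bases upstream of the start sites of Myh6, Mhrt and Myh7. Neither the Myh7b window nor the window of a second Myh7 start site held these letters. The second Myh7 window (chr14:54994500-54994799) stopped short of the Myh7 match shown above, which lies further upstream of that start site. Of all 32851 windows, 14.7% held them, so a match is common. It was 1 of 7 motifs searched in this way; the other 6 were AGGTCA (in 16.3% of windows), GATAA (25.4%), CANNTG (72.3%), TATAAA (13.6%), the CArG box (1.63%) and the MEF2 site (3.19%). Of these, CANNTG was found in the windows of all 4 genes, AGGTCA and GATAA in that of Myh7b and TATAAA in that of Myh6.

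The libraries held 17434296 to 19360428 reads assigned to genes, recovered from the FPKM as described under the processing. Ythdc1 was listed at 4.31, 3.64 and 4.10 FPKM in flox controls 1, 2 and 3 and at 2.39, 2.57 and 2.34 FPKM in CKO 1, 2 and 3, so every CKO library was below every control. Cardiomyocyte markers were present in all libraries, 8 of 8, summing to 15585 to 19224 FPKM in controls against 12660 to 16068 FPKM in CKO. Tnni3 was the 1 called among them, lower in CKO (log2 difference -0.73, adjusted p = 0.0314, limma). Ryr2 and Pln were lower in every CKO library without being called, and Tnnt2, Actc1, Mybpc3, Myl2 and Myl3 overlapped between the groups. CKO 1 stood apart in macrophage markers, 6 of 6 found: their sum was 815 FPKM there and 105 to 264 FPKM in the other 5 libraries. CKO 3 stood apart in sex-linked genes, with 4037 Xist reads against 0 to 5 elsewhere and 0.350 FPKM of Ddx3y against 10.8 to 15.9. The Y-linked genes Uty, Kdm5d and Eif2s3y were also lowest in CKO 3. In these genes CKO 3 thus had a female pattern and the other 5 libraries a male one, and the fits did not adjust for it. Atrial markers, 9 of 9 found, summed to 196 to 461 FPKM in controls against 588 to 2135 FPKM in CKO, with no overlap. Most of the CKO sum was Nppa, the natriuretic peptide gene that ventricles also express under load, at 191, 83.5 and 99.5 FPKM in flox controls 1, 2 and 3 against 935, 518 and 2057 in CKO 1, 2 and 3. The other 8 atrial markers summed the other way, to 112 to 349 FPKM in controls against 70.6 to 77.4 FPKM in CKO. Myl7 was the largest part of that sum in controls. Dkk3, among the 8, had the higher mean in CKO, 21.2 against 12.6 FPKM. Dkk3, Mybphl, Bmp10 and Kcna5 overlapped between the groups. Sln and Stard10 were called lower in CKO (adjusted p = 0.0436 and 0.0118, limma). Fibroblast markers, 7 of 7 found, summed to 330 to 448 FPKM in controls against 474 to 692 FPKM in CKO, again with no overlap. The 1 called among them was Tcf21, at 6.08 to 7.88 FPKM in controls against 12.9 to 22.5 in CKO. Col1a1, Col1a2, Pdgfra and Postn were higher in every CKO library without being called. Dcn and Lum overlapped between the groups, with log2 differences of -0.03 and -0.26. Skeletal muscle markers, 11 of 11 found, summed to 387 to 509 FPKM in controls against 192 to 349 FPKM in CKO, nearly all of it Ckm, which the heart also expresses; Myog was at 0 in all libraries. The sums of smooth muscle, endothelial and erythroid markers overlapped between the groups. Of their genes, Smtn of smooth muscle (-0.81, adjusted p = 0.0159, limma) and Tie1 of endothelium (-0.48, adjusted p = 0.0302, limma) were called, both lower in CKO. These values stand beside the results below, and their part in them was not tested. In whole heart RNA, fewer cells of a type and less RNA per cell cannot be told apart.

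Across all 12144 genes, limma on log2(FPKM + 1) called 1358, or 11.2%, at a Benjamini-Hochberg adjusted p under 0.05. Of the 4 genes, 2 were called: Mhrt and Myh7b, both lower in CKO. Of all genes, 5.69% were called higher and 5.49% lower. Mhrt fell to 0.376 of its control mean and Myh7b to 0.640. With no filter, Mhrt was the 1 gene of the 4 called, against 2.95% of 27031 genes. Myh7 had the largest ratio of means, 128 against 21.9 FPKM, and Myh6 the ratio nearest to 1, 3212 against 3844 FPKM, and neither passed the test. In 3 of the 4 genes the groups did not overlap, as in 34.3% of all genes tested.

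**Figure D1:**
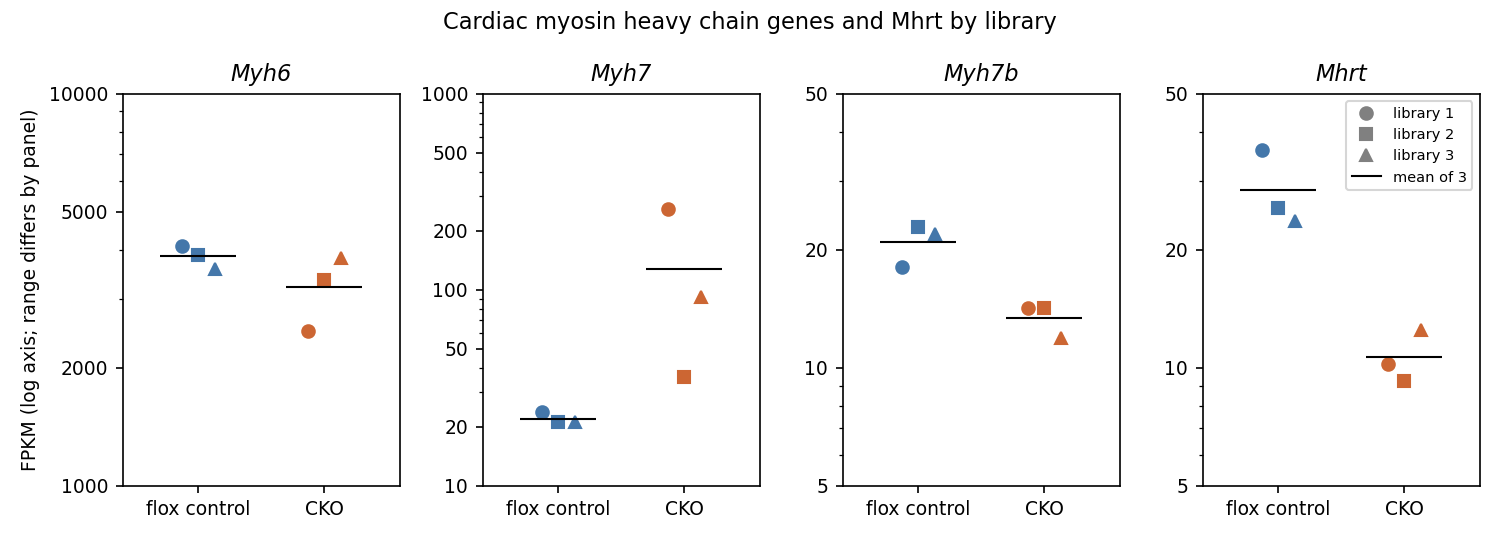
FPKM of the 4 genes in each library on log axes whose range differs by panel; points are libraries (shape: replicate number, which does not pair the mice) and lines are means of 3. Mhrt and Myh7b lie lower in all CKO libraries than in all controls, Myh7 lies higher and is spread from 35.8 to 257 FPKM in CKO, and the Myh6 groups overlap.

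Myh6, the alpha chain gene (ENSMUSG00000040752, chr14:54941921-54966927, minus strand), stood at 4092, 3882 and 3559 FPKM in flox controls 1, 2 and 3. In CKO 1, 2 and 3 it stood at 2481, 3344 and 3812 FPKM. CKO 1 and 2 were below every control and CKO 3 lay within the control range, so the groups overlapped. Myh6 was the third most abundant nuclear-encoded gene in both groups. It took 2.51% to 2.62% of all reads in controls and 1.72% to 2.45% in CKO, with CKO 1 the lowest. The log2 difference was -0.28 ± 0.23 (SE, n = 3 and 3), with a 95% interval of -0.83 to 0.27 and an adjusted p of 0.482 from limma.

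Myh7, the beta chain gene (ENSMUSG00000053093, chr14:54970684-54994626, minus strand), stood at 23.7, 21.1 and 21.1 FPKM in flox controls 1, 2 and 3. In CKO 1, 2 and 3 it stood at 257, 35.8 and 91.3 FPKM, from 39747, 5997 and 14255 reads. All CKO libraries were above all controls, the lowest CKO by 1.51 times over the highest control. Mean Myh7 was 21.9 ± 1.5 FPKM in controls against 128 ± 115 FPKM in CKO (SD, n = 3 each), a ratio of 5.84. The log2 difference was 2.06 ± 0.63 (SE), with a 95% interval of 0.55 to 3.57 and an adjusted p of 0.0871 from limma, short of the threshold. The call depended on which mice were compared: without CKO 2 the log2 difference was 2.75 with an adjusted p of 0.0297, and without CKO 1 it was 1.35 with an adjusted p of 0.0639. It was also called once all libraries were scaled to the same FPKM sum (2.11, adjusted p = 0.0445).

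The spread of Myh7 among the CKO hearts was unusual for these data. The highest CKO library was 7.19 times the lowest, and 204 genes, 1.68% of those tested, had a spread as large. The median gene differed by 1.28 times among the CKO libraries. Among the controls the highest Myh7 value was 1.12 times the lowest, below the 1.23 times of the median gene. CKO 1, the library with the most Myh7, also had the least Myh6 and the highest macrophage marker sum.

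Myh7b, the older relative (ENSMUSG00000074652, chr2:155611212-155634307, plus strand), stood at 18.1, 22.8 and 21.9 FPKM in flox controls 1, 2 and 3. In CKO 1, 2 and 3 it stood at 14.2, 14.2 and 11.9 FPKM, below all controls. It fell by 0.60 ± 0.12 on the log2 scale (SE, n = 3 and 3), with a 95% interval of -0.90 to -0.31 and an adjusted p of 0.0286 from limma. The call was lost on leaving out any single library but CKO 1, with an adjusted p of 0.0518, 0.0850 and 0.0975 without flox controls 1, 2 and 3 and of 0.0605 and 0.0784 without CKO 2 and 3. It was also lost with all libraries scaled to the same sum (-0.55, adjusted p = 0.128). Mir499, inside its intron 19, had 0 reads in all 6 libraries.

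Mhrt (ENSMUSG00000097652, chr14:54968678-54974349, plus strand), the antisense RNA, stood at 35.8, 25.6 and 23.7 FPKM in flox controls 1, 2 and 3. In CKO 1, 2 and 3 it stood at 10.2, 9.27 and 12.5 FPKM, from 222, 219 and 275 reads. The lowest control was well above the highest CKO library, and mean Mhrt was 28.4 ± 6.51 FPKM against 10.7 ± 1.66 FPKM (SD, n = 3 each). Mhrt fell by 1.32 ± 0.18 on the log2 scale (SE), with a 95% interval of -1.75 to -0.89 and an adjusted p of 0.00961 from limma. It was called under each of the 18 alternatives tried, with adjusted p between 0.00296 and 0.0341.

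Per length, the order of the 4 levels differed between the groups. In controls Myh6 was followed by Mhrt and then by Myh7 and Myh7b, whose ranges overlapped, and the lowest Mhrt value (23.7187 FPKM) lay just over the highest Myh7 value (23.6561 FPKM). In CKO, Myh6 was followed by Myh7 and then by Myh7b and Mhrt, whose ranges overlapped. By mean FPKM among the genes tested, Myh7 stood at rank 1819 in controls and 321 in CKO, and Mhrt at rank 1380 in controls and 3705 in CKO.

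The ratio of Myh7 to Myh6 within a library does not depend on how that library was scaled. Myh7 was 0.578%, 0.543% and 0.592% of Myh6 in flox controls 1, 2 and 3. In CKO 1, 2 and 3 it was 10.4%, 1.07% and 2.39% of Myh6. The controls were close together, the CKO libraries were all higher, and the lowest CKO ratio was 1.81 times the highest control ratio. The geometric mean ratio was 5.23 times as high in CKO, a log2 difference of 2.39, with SDs of the log2 ratio of 0.06 in controls and 1.66 in CKO. The exact 2-sided permutation test gave p = 0.1, the smallest that 3 against 3 allows. As a share of the summed FPKM of both genes, Myh7 made up 0.568% ± 0.0251 in controls and 4.26% ± 4.49 in CKO (SD, n = 3 each), so Myh6 remained the main form in every heart. That sum itself was 4115, 3903 and 3580 FPKM in controls against 2738, 3379 and 3904 FPKM in CKO, with overlapping groups (exact permutation p = 0.3, 2-sided).

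The antisense pair was compared in the same way. Mhrt was 1.51, 1.21 and 1.13 times Myh7 in flox controls 1, 2 and 3. In CKO 1, 2 and 3 it was 0.0396, 0.259 and 0.137 times Myh7. The lowest control ratio was 4.34 times the highest CKO ratio, and the log2 difference was -3.51 (exact permutation p = 0.1, 2-sided, the smallest possible). Against Myh6, Mhrt was 0.875%, 0.658% and 0.666% in controls and 0.411%, 0.277% and 0.328% in CKO, again with no overlap and a log2 difference of -1.12 (exact permutation p = 0.1, 2-sided). Myh7b against Myh6 overlapped between the groups, at 0.441% to 0.616% in controls and 0.312% to 0.571% in CKO, with a log2 difference of -0.36 (exact permutation p = 0.2, 2-sided). These 4 ratios and the sum are 5 related comparisons; their Benjamini-Hochberg adjusted p was 0.167 for the 3 ratios without overlap, 0.25 for Myh7b to Myh6 and 0.3 for the sum.

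**Figure D2:**
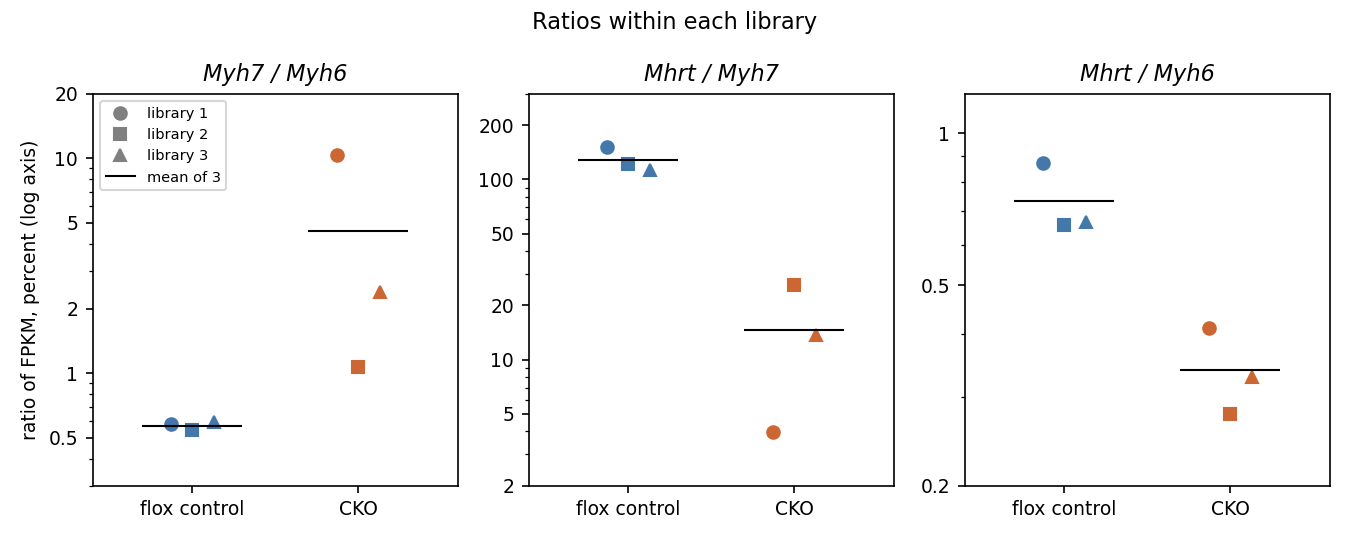
Ratios of FPKM within each library, in percent on log axes whose range differs by panel; points are libraries and lines are means of 3. Myh7 to Myh6 is higher in all 3 CKO libraries, from 1.07% to 10.4%, and Mhrt to Myh7 and Mhrt to Myh6 are lower in all 3.

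Mhrt and Myh7 share sequence on opposite strands, which bears on how their reads can be counted. Of the 1214 exonic bases of Mhrt, 484 (39.9%) lie over Myh7 exons, and of the 8616 exonic bases of Myh7, 1149 (13.3%) lie over exons of Mhrt, Gm29015 or Gm31251. The strand setting of the counting is not given in the sources used here, and without strand the reads of such bases cannot be told apart. If reads over shared bases had been left unassigned, the level of Mhrt per unshared base would be 1.66 times that listed and that of Myh7 1.15 times, in both groups alike. Mhrt did not follow Myh7 among the CKO hearts: CKO 1 had the most Myh7 reads, 39747, and 222 Mhrt reads, between those of CKO 2 and 3. Gm29015, an antisense gene with 142 of its 207 exonic bases over Myh7 exons, had 0 reads in all 6 libraries.

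Myh6 and Myh7 also resemble each other on the same strand. The coding sequences of Myh6-201 and Myh7-201 were 91.8% identical over aligned bases, and 330 of the 5986 windows of 150 bases in Myh7-201 (5.51%) were also found whole in Myh6-201. The longest stretch identical in both transcripts was 245 bases, shorter than the sequenced fragments of 370 to 420 bp. A single read from those windows could fit either gene. How such reads and their mates were counted is not given in the sources used here. Myh6 had 458586 to 477174 reads in controls, against 3188 to 3618 for Myh7. The uncertain part may thus be a larger share of the Myh7 count than of the Myh6 count, and so bear on their ratio. Its size was not tested. Myh7b shared no such window with either gene.

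Inside the body of Myh7 lie small annotated genes with fewer reads in CKO. Mir208b (chr14:54975700-54975776, minus strand), in intron 31, had 360, 296 and 361 reads in flox controls 1, 2 and 3, against 96, 84 and 131 in CKO 1, 2 and 3. It fell by 1.75 ± 0.20 on the log2 scale (SE; adjusted p = 0.00670, limma), while the exonic reads of Myh7, its host, were higher in the same libraries without passing the test. Gm17428 (chr14:54976933-54977025, plus strand), in intron 30, had 145, 126 and 168 reads in controls and 81, 77 and 72 in CKO, and fell by 0.94 ± 0.12 (adjusted p = 0.00765, limma). Both were called under all 18 alternatives. These loci are shorter than the sequenced fragments of 370 to 420 bp, so their reads extend past them, on a strand not known here, and are not the mature microRNA.

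Further along Myh7, the antisense gene Gm31251 (chr14:54979393-54991601, plus strand) had 101, 113 and 80 reads in controls and 59, 48 and 52 in CKO. It fell by 0.69 ± 0.16 (adjusted p = 0.0427, limma). The Gm31251 call did not hold when flox control 1 or 2 was left out (adjusted p = 0.145 and 0.117), nor when CKO 2 or 3 was (adjusted p = 0.114 and 0.107). It was also lost with no filter (adjusted p = 0.103), with voom on the recovered reads (0.0685) and under the replicate block (0.0737). Mhrt, Mir208b and Gm17428, and Gm31251 with a call that rests on these choices, were thus lower in CKO along a stretch over which the Myh7 exons, in every CKO library, stood above the controls. Around Myh6 no such change passed: Mir208a, in its intron 29, had 41, 11 and 19 reads in controls and 30, 47 and 48 in CKO (log2 difference 0.90, adjusted p = 0.248), and Gm49130, antisense over its 3′ end, differed by -0.38 (adjusted p = 0.273). Trpc4ap, which shares 37 exonic bases with Myh7b, differed by 0.06 (adjusted p = 0.675).

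**Figure D3:**
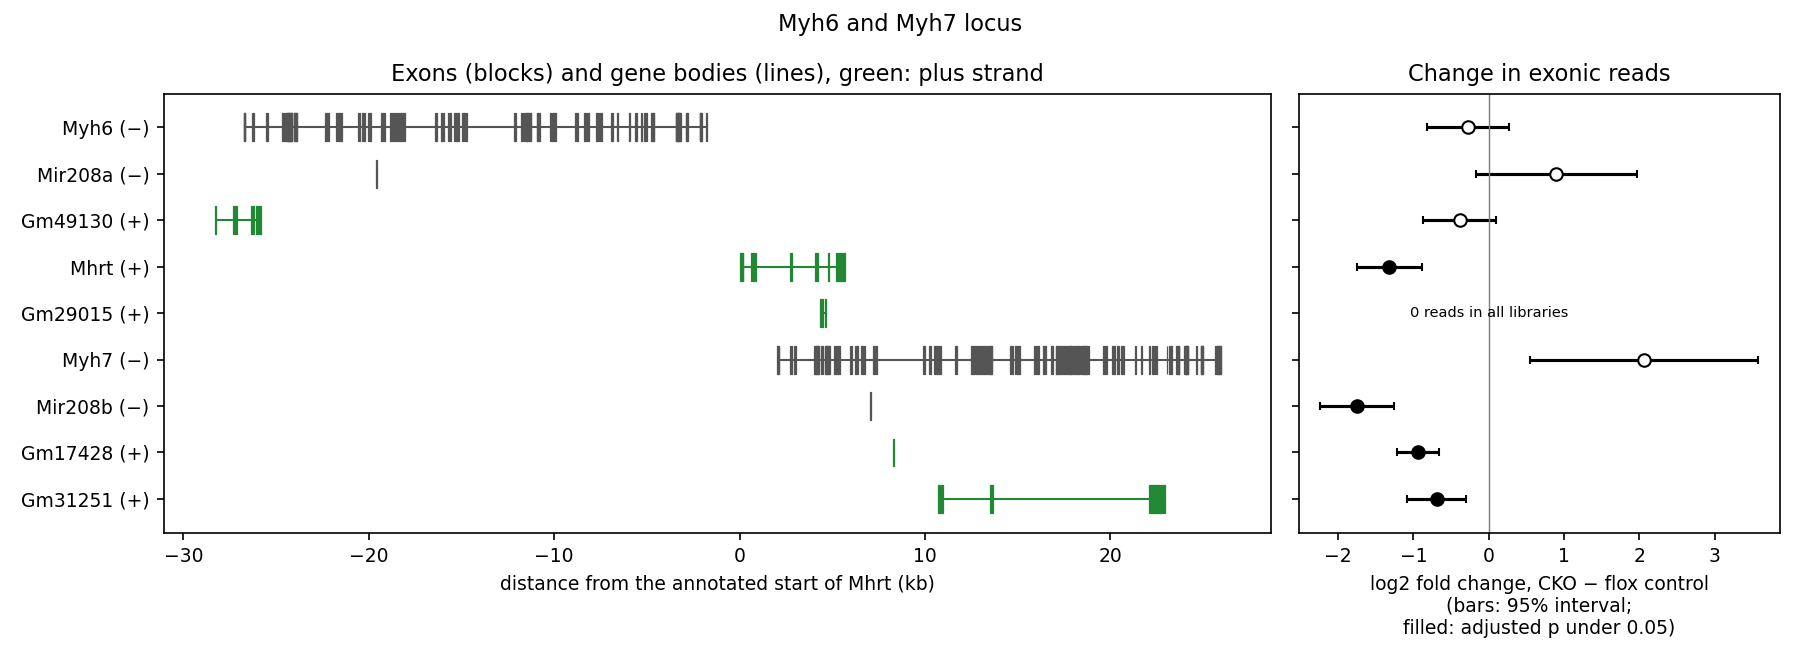
Left, exons (blocks) and gene bodies (lines) around Myh6 and Myh7 by distance in kb from the annotated start of Mhrt, green for the plus strand; right, log2 difference of each gene, CKO minus flox control, with 95% intervals, filled where the adjusted p was under 0.05. Mhrt, Mir208b, Gm17428 and Gm31251 lie below 0, the Myh7 estimate of 2.06 lies above 0 and is not called, and Gm29015 had 0 reads.

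The genes that work with the heavy chains were read from 8 lists, 118 genes in all, of which 97 passed the filter. limma called 15 of the 97 (15.5%), 6 higher and 9 lower, against 11.2% of all genes. Of these 15 calls, 5 held in all 6 fits that leave out 1 library (Hsp90aa1, Dio2, Hopx, Rcan1 and Eif4ebp1), and 10 were lost in at least 1, with no change of sign. The median log2 difference of a list lay between -0.25 and 0.12, against 0.01 over all genes tested.

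The structural partners of Myh6 and Myh7 gave calls in both directions. Of the other heavy chains, 4 of 11 were tested and none was called, Myh14 (-0.92, adjusted p = 0.208) and Myh11 of smooth muscle (-0.31, adjusted p = 0.298) being nearest; the other 7 had at most 26 reads in any library. Of the 10 light chains tested, Myl1 fell, from 17.5, 14.0 and 10.4 FPKM in controls to 5.46, 7.46 and 7.21 in CKO (adjusted p = 0.0307). The atrial light chain Myl7 was at 154, 56.6 and 244 FPKM in controls and 39.2, 24.1 and 40.7 in CKO (adjusted p = 0.0631). Of the 11 thick filament genes tested, the M-band gene Myom2 rose (1.16, adjusted p = 0.0361) and the ubiquitin ligase gene Trim55 fell (-0.72, adjusted p = 0.0203). Of the 14 folding and phosphorylation genes tested, the chaperone gene Hsp90aa1 rose from 30.4, 32.1 and 27.1 FPKM to 50.5, 63.6 and 58.8 (adjusted p = 0.00925), and its myosin cochaperone Unc45b (-0.40, adjusted p = 0.0333) and the myosin light chain kinase gene Mylk4 (-1.62, adjusted p = 0.0281) fell.

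Thyroid hormone is the best known switch between Myh6 and Myh7. Of 13 genes of its input tested, 1 rose and 2 fell, with a median of -0.08. Dio2, which makes active hormone within cells, rose from 0.397, 0.725 and 0.578 FPKM in controls to 3.02, 5.23 and 5.35 in CKO (1.80 ± 0.20, adjusted p = 0.00607, limma). The receptor partner Rxrg fell (-1.25, adjusted p = 0.0389), as did the coactivator gene Ncoa2 (-0.37, adjusted p = 0.0467). The receptor genes themselves did not pass: Thrb was at 3.04, 2.35 and 2.27 FPKM in controls and 1.75, 1.24 and 1.49 in CKO (adjusted p = 0.0528), and Thra overlapped (adjusted p = 0.448).

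Of the 20 transcription factors of the heavy chain genes that were tested, Gata4 rose (0.73, adjusted p = 0.0162) and Nkx2-5 fell (-0.51, adjusted p = 0.0418). None of the 4 TEAD genes, whose proteins bind the M-CAT core shown above, was called. Tead1 was at 10.9, 10.6 and 10.4 FPKM in controls and 11.5, 14.0 and 13.8 in CKO (adjusted p = 0.123, limma). Tead3 went the other way, from 4.47, 3.71 and 4.26 FPKM to 3.01, 2.94 and 3.53 (adjusted p = 0.101, limma). Tead2 and Tead4 overlapped between the groups. Among 16 repressors and chromatin factors tested, Hopx, a homeodomain protein that does not bind DNA, fell from 131, 136 and 177 FPKM to 60.6, 38.2 and 53.3 (adjusted p = 0.00917), and Parp1 fell (-0.74, adjusted p = 0.0177). Smarca4, which encodes the Brg1 protein bound by Mhrt, differed by 0.01 (adjusted p = 0.966). Of 9 calcineurin and mTOR genes tested, 2 rose: Rcan1, a calcineurin target and regulator, from 25.5, 25.3 and 23.2 FPKM to 48.2, 62.8 and 57.7 (adjusted p = 0.00580), and the translation repressor gene Eif4ebp1, from 29.0, 28.0 and 27.0 FPKM to 60.8, 58.6 and 87.1 (adjusted p = 0.00897).

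The 10 calls that did not hold in every fit leaving out 1 library were lost as follows. Their adjusted p in those fits, where lost, ran from 0.0513 (Myl1) to 0.162 (Ncoa2). Unc45b, Ncoa2 and Nkx2-5 were lost on leaving out any 1 library. Myl1 was lost without any library but flox control 3, Myom2 without any but CKO 2, and Mylk4 without any but CKO 1. Trim55 was lost without flox controls 2 or 3 or CKO 2, Rxrg without any control or CKO 3, Gata4 without any control, and Parp1 without any control or CKO 2. With the same FPKM sum, Unc45b, Ncoa2, Nkx2-5, Parp1 and Trim55 were lost too, with adjusted p from 0.0529 (Trim55) to 0.238 (Unc45b). With no filter, Myl1, Myom2, Mylk4, Rxrg, Ncoa2 and Nkx2-5 were lost, and under the replicate block all 10 but Myom2 and Trim55.

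**Figure D4:**
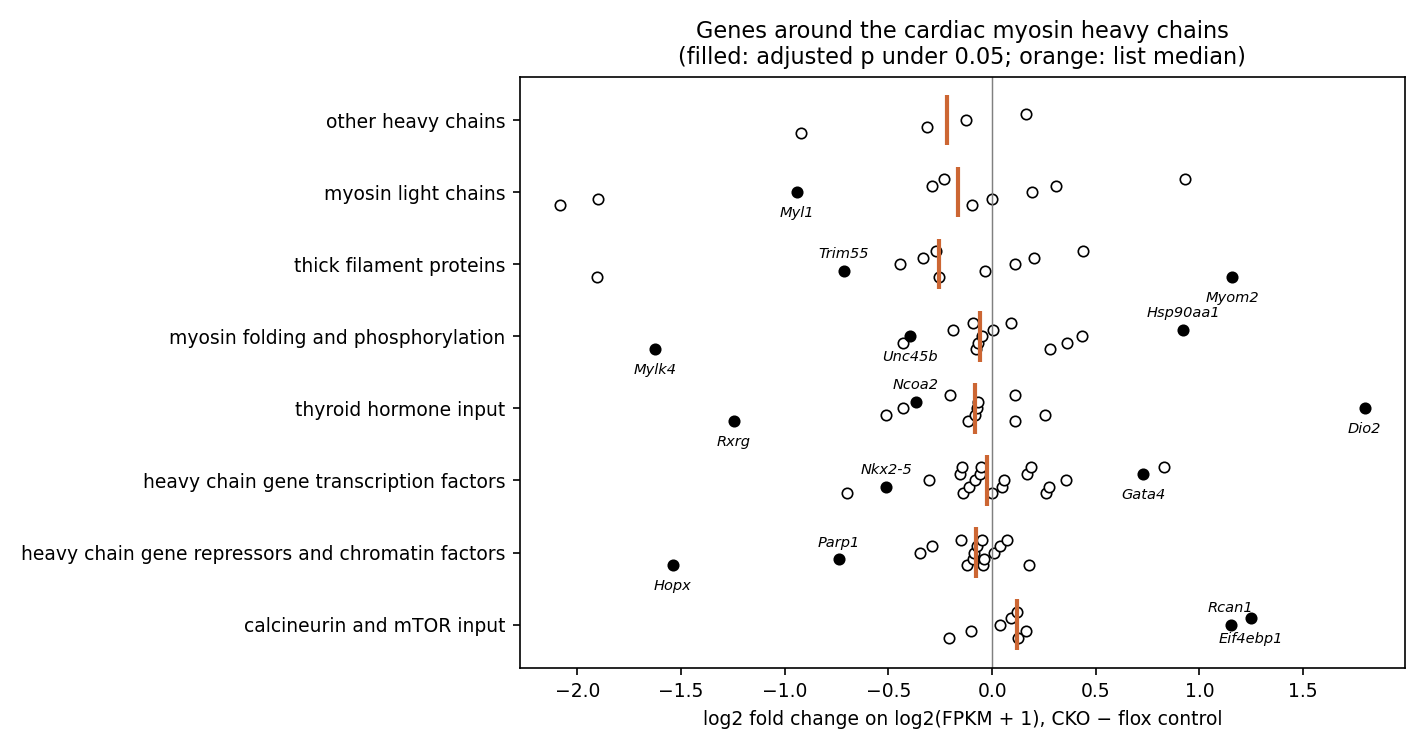
Log2 difference, CKO minus flox control, of the 97 tested genes in 8 lists around the heavy chains; points are genes, filled where the adjusted p was under 0.05, and orange lines are list medians. The called genes lie on both sides of 0, and the medians lie between -0.25 and 0.12.

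The genes whose pattern was most like each of the 4 were sought by Pearson's r of log2(FPKM + 1) over the 6 libraries, among 10918 genes with an established symbol. These values describe the pattern only, since all 6 points come from the same libraries and the group difference enters each of them. For Myh7 they included Selenow (r = 0.988), Rad52 (0.987), Stk11 (0.986) and Ecm1 (0.982). Selenow, a selenoprotein gene, followed the order of the Myh7 values among the CKO hearts, with 221, 135 and 175 FPKM in CKO 1, 2 and 3, against 128 to 134 in controls. For Myh6 they included Tspyl4 (0.990) and Jcad (0.986). For Myh7b they were Ube2n (0.991), Grk6 (0.990) and Ibtk (0.990), and for Mhrt they were Cyth1 (0.998), Smco1 (0.995) and Trmt13 (0.994).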

How the data were processed

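Per the labels' protocols, heart RNA was selected with poly-T beads, primed with random hexamers, size-selected at 370 to 420 bp and read for 150 bp from both ends. The deposited values are FPKM. The submitters' processing notes name the build GRCm38.p6 and the tools HISAT2 2.0.5, CASAVA, DESeq2 1.20.0 and featureCounts 1.5.0-p3, in roles not given there. Multiplied by gene length, 100% of the values in each library were whole multiples of a single step (tolerance 0.001), and the reads printed are these multiples. The scaling of each library implied by that step was not its total of reads. It equalled a median-of-ratios factor: the median, over genes with reads in all libraries, of its reads relative to their geometric mean. CKO 2, with 17872221 reads, had a factor of 1.07, and CKO 3, with 19360428 reads, one of 0.995. For the 4 genes and their intronic and overlapping neighbours, the deposited gene length, in bases, equals the exon union in GENCODE M21. Lengths of other genes were not compared. Of 54532 gene IDs, 54495 were found there, 53585 of them with identical start and end. Genes averaging at least 1 FPKM were tested on log2(FPKM + 1), which understates changes of low genes, with limma 3.58.1 (R 4.3.3; variance trend, genotype only, 2-sided, adjusted p under 0.05). Ratios were tested by exact permutation over 20 arrangements. The procedure was tested on simulated data whose spread, in both groups, was taken from the controls. That test does not cover a wider spread in CKO, as Myh7 had. Tables and figures used Python 3.11.15, numpy 2.4.6, pandas 2.3.3, scipy 1.17.1, matplotlib 3.10.9 and Biopython 1.88.

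The 4 genes and all lists were chosen with earlier results of these data known. Genes named are those 4, their intronic microRNA genes, overlapping neighbours, Ythdc1, the called members of every list, at most 4 by smallest adjusted p (or 2 where none was called), and the most alike genes (5 for Myh7, 3 for each of the others), some of which are not reported here. Myl7, Thra, Thrb, Tead1, Tead2, Tead3, Tead4, Smarca4, Xist, Ddx3y, Nppa, Tcf21, Ckm and Gm17428 were chosen after their values were seen. So were the other cell type and sex-linked markers named. Alternatives covered pseudocount, filter, scaling, variance model, the replicate number as a block, and each library left out.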

Additional observations from a re-analysis of the deposited data

How the results depend on the processing

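Of 12144 genes tested, 1358 were called. With no filter the count was 798 of 27031, under the replicate block 715, and on leaving out 1 library it ranged from 315 (without flox control 1) to 1490 (without CKO 1); it was 602 and 472 without flox controls 2 and 3 and 715 and 579 without CKO 2 and 3. Fewer libraries enter these fits. Mhrt and Myh6 kept their direction and their side of the threshold in all 18 alternatives (log2 difference -1.43 to -1.15 and -0.41 to -0.10). Myh7 was called when libraries were scaled to the same sum (2.11, adjusted p = 0.0445) and without CKO 2 (2.75, adjusted p = 0.0297). On leaving out 1 library its log2 difference ranged from 1.35 to 2.75, with a limma adjusted p of up to 0.201. Myh7b was not called with no filter (-0.60, adjusted p = 0.0562), where more genes are tested, or with the same sum (-0.55, adjusted p = 0.128), where the cause was not tested; on leaving out 1 library it ranged from -0.70 to -0.53. The 4 ratios and the sum kept their direction in all alternatives run: Myh7 to Myh6 1.49 to 3.13, Mhrt to Myh7 -4.11 to -2.76, Mhrt to Myh6 -1.27 to -0.99, Myh7b to Myh6 -0.58 to -0.14, and the sum -0.34 to -0.09. With 3 against 3 their p could not pass the threshold, so this says nothing of their stability.

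Replicate numbers are shared between the groups, but the correlations of same-numbered libraries' deviations were 0.14, 0.06 and -0.01, so the numbers were not taken to pair the mice. With the replicate block, Myh7b was -0.60 with an adjusted p of 0.0715, Mhrt kept its call (adjusted p = 0.0323), and Myh6 and Myh7 were not called (adjusted p = 0.647 and 0.0829). In sign flips over 3 pairs the smallest p is 0.25. The largest shift of the median gene under another scaling was 0.0444 on the log2 scale, with the same sum. Low depth limits several genes of the locus: Mhrt rests on 219 to 735 reads per library, Mir208b on 84 to 361, Gm17428 on 72 to 168, Gm31251 on 48 to 113 and Mir208a on 11 to 48.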

Other observations

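Thyroid hormone also has a cytosolic binding protein, encoded by Crym. It had 1 read in each flox control and 11, 9 and 12 reads in CKO 1, 2 and 3, too few to pass the filter of a mean of 1 FPKM. With no filter, limma gave an adjusted p of 0.0311. Myh8, the perinatal skeletal heavy chain gene, had 3, 2 and 3 reads in controls and 5, 26 and 4 in CKO, and with no filter its adjusted p was 0.581; CKO 2, the library with most Myh8, had the least Myh7 of the CKO hearts. Both genes were chosen after their values were seen.

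GGACT, a common form of the sequence at which N6-methyladenosine is placed, was counted in the heavy chain transcripts. Myh6-201 held 4, Myh7-201 held 7, Myh7b-201 held 2 and Mhrt-201 held 1, which is 0.654, 1.14, 0.325 and 1.21 per kb. The longest transcripts of 12136 tested genes had a median of 1.02 per kb, with quartiles of 0.588 and 1.5. The 4 transcripts above were instead the first-numbered of their genes, so the choice of transcript differed. Mhrt-201 is 828 bases long, and its density rests on its 1 match. Methylation of RNA was not measured here.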
